A study of Homo sapiens with 24 samples.

Results

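The uninduced Tet-MIST1 line was compared with the empty-vector Tet-One line, using the Control libraries of both lines alone. These were 4 Tet-MIST1 Control libraries at passage 33 and 4 Tet-One Control libraries at passage 32, 8 of the 24 libraries of the series. Both groups were Panc-1 cells, an established human line from a pancreatic ductal adenocarcinoma, that had been stably transfected with a Tet-One plasmid and selected in puromycin. The Tet-One cells carried the empty plasmid and the Tet-MIST1 cells a plasmid with the open reading frame of rat MIST1 with a myc tag. Both were grown for 72 h in DMEM with 10% fetal bovine serum depleted of tetracycline, and neither was given doxycycline (Dox). In the rest of the series the same lines, and a Tet-PTF1a line, were also treated with Dox at 1 µg per mL. Each line was grown from an individual clone, so that 4 libraries of a line are replicates of 1 clone. Line derivation, leak of the transgene and passage differ together between the groups and cannot be told apart.

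MIST1, the product of BHLHA15, is a basic helix-loop-helix transcription factor of serous secretory cells such as the acinar cells of the pancreas, where it drives genes of vesicle trafficking and of the secretory apparatus. In a Tet-On system the transactivator is made constantly and binds the promoter of the transgene once Dox is present, and low expression without Dox is called leak. Tumour cell lines are mixtures of cells that differ in gene expression and in chromosome number, and a clone starts from a single cell of such a mixture.

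The deposited tables listed 13879 genes for both lines and none for one of them alone. Levels are given as CPM, the usual scaling of gene counts to a fixed library total. The 13825 genes over 0.5 CPM in 4 or more of the 8 libraries were tested. Total counts were between 35628826 and 42510942 per library. Log CPM values of libraries of the same line correlated at 0.996 or more across genes, and those of different lines at 0.924 to 0.927. The paper describes 4 biological replicates, and each library was counted as 1 replicate. No pair of libraries of a line differed by as little as sampling alone would give (the chi-square over its degrees of freedom was between 2.1 and 12.7). That excess does not show that the cultures were separate. The labels do not tie the replicates to separate thaws or days, so the p-values measure the spread between these libraries. In the Dox libraries, used here only to look for the same differences again, Tet-One Dox replicate 1 stood apart from the other 3 (221 to 236 per degree of freedom, against 4.2 to 5.4 among the others). The counts over all genes of calls with Dox, and of Control calls that recurred, are given with and without it. Other values that rest on it are given only with it. These include the medians of arms and blocks, the counts within gene lists and the interaction of line and Dox.

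Keratin and transcription factor genes of the ductal lineage were expressed in every library of both lines. KRT8 was at 874 CPM or more, KRT18 at 665 or more, KRT19 at 65.2 or more and SOX9 at 110 or more in each of the 8 libraries, while KRT7 was between 1.19 and 4.9 CPM. Of the markers of other cell types, 4 of 12 immune, 1 of 7 endothelial and 3 of 10 fibroblast genes were tested, along with 2 of 19 digestive enzymes. The summed level of the immune list was 107 to 119 CPM in Tet-One and 251 to 258 CPM in Tet-MIST1, nearly all of it from CD68, a lysosomal gene that is also expressed outside macrophages. The fibroblast list (THY1, COL1A1 and PDGFRB) summed to 176 to 204 CPM in Tet-One and 83.2 to 88.6 CPM in Tet-MIST1. The digestive enzymes summed to 1.32 to 1.72 CPM in Tet-One and 1.02 to 1.21 CPM in Tet-MIST1. The endothelial list held only ERG, at 3.4 to 3.99 CPM in Tet-One and 2.5 to 3.15 CPM in Tet-MIST1. The part of these levels in the results was not tested. In such bulk libraries, fewer cells of a kind and less RNA per cell cannot be told apart.

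Between the uninduced lines, 11088 genes (80.2% of those tested) differed at FDR under 0.05 by edgeR's quasi-likelihood test. Of these, 5460 were higher (39.5%) and 5628 were lower (40.7%) in Tet-MIST1. With library size in place of TMM scaling the split was 6111 higher and 4982 lower, so which direction led depended on the scaling. With TMM scaling, the median change of all tested genes was -0.01 on the log2 scale, and the median absolute change was 0.375. The 10th and 90th percentiles were -0.85 and 0.97, so most of the calls were changes of under 2-fold. The median SE of a log2 fold change was 0.053 and the common biological coefficient of variation was 4.46%. In 10 equal bins of genes by exon length, the median log2 change went from 0.123 in the shortest bin to -0.189 in the longest. With the trends of exon length and GC content removed together, 11447 genes were called, 2373 of them with a difference of at least 2-fold. The part of length alone was not tested. The libraries of the lines did not overlap for 10333 genes (74.7%).

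Differences of at least 2-fold were found for 2427 genes (17.6%), of which 1346 were higher (9.74%) and 1081 lower (7.82%) in Tet-MIST1. Differences of at least 4-fold numbered 509 higher and 290 lower, those of at least 8-fold 200 and 122, and those of at least 32-fold 46 and 41. On a common scale over the 13506 genes listed for all 3 lines, the mean Control levels of Tet-MIST1 and Tet-One differed at least 2-fold for 1863 genes (13.8%). The same count was 1055 (7.81%) for Tet-PTF1a against Tet-One and 2149 (15.9%) for Tet-MIST1 against Tet-PTF1a. These 3 counts share their libraries in pairs and were not tested against each other.

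**Figure D1:**
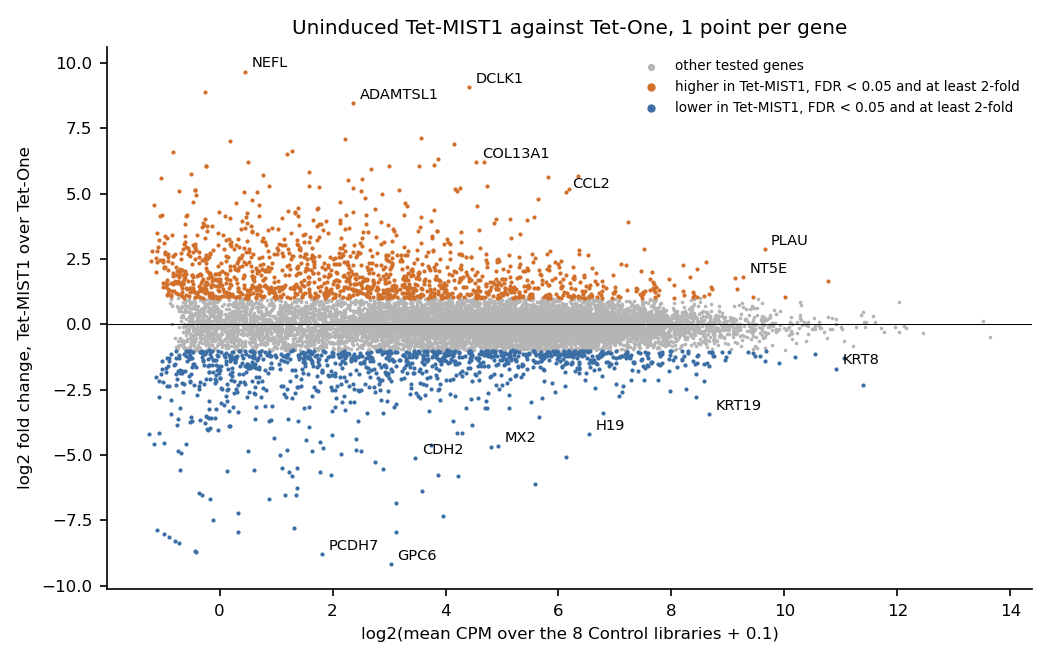
Log2 fold change of Tet-MIST1 over Tet-One against the mean level, as log2(CPM + 0.1), with 1 point per tested gene. Orange and blue points are the 1346 higher and 1081 lower genes with FDR under 0.05 and at least 2-fold, spread over the whole range of levels. The fitted value of a gene with no count in a line, such as NEFL, depends on the prior count.

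The same lines were compared again in their Dox libraries, which are other libraries of the same 2 clones. There, 7251 of 13769 tested genes (52.7%) differed, 3575 higher and 3676 lower in Tet-MIST1. With library size in place of TMM scaling the split was 4343 higher and 2940 lower. The variation between Dox libraries was larger, with a coefficient of variation of 15.1%, and without Tet-One Dox replicate 1 the count was 10195. Of 10987 genes that were called in the Control libraries and tested with Dox, 10532 (95.9%) had the same sign. Of these 10987, 6863 (62.5%) were called in the same direction and 33 in the opposite one, or 9041 (82.3%) and 104 without Tet-One Dox replicate 1.

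Of the 2345 genes that differed at least 2-fold in the Control libraries and were tested with Dox, 2344 had the same sign there. The same direction was called for 2298 (98.0%), or 2320 (98.9%) without Tet-One Dox replicate 1. One of them, ACBD7, turned from a log2 change of -1.09 to 0.95, and both were called. The difference between the lines with Dox differed from that without Dox for 231 of 13879 genes, by the interaction of line and Dox.

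The genes with the largest differences were present in 1 line and nearly absent from the other. At most 3 counts in every library of 1 line and a mean of 1 CPM or more in the other were found for 14 genes that were higher and 18 that were lower in Tet-MIST1. For such genes the fold is a lower bound, computed against 3 counts per library (0.0765 CPM in Tet-One and 0.074 CPM in Tet-MIST1).

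DCLK1, a microtubule-associated kinase that marks tuft cells and has been used as a marker of pancreatic cancer stem cells (CSCs), had the largest log2 fold change among the higher genes with counts in both lines. It is listed at chr13:36342789-36705514 of hg19, minus strand. DCLK1 was at 0.0258, 0.0528, 0.123 and 0.101 CPM in the Tet-One libraries and at 44.3, 42.2, 40.8 and 42.1 CPM in the Tet-MIST1 libraries. All 4 Tet-MIST1 libraries were above every Tet-One library, and the log2 fold change was 9.06 (SE 0.12, FDR 5.99e-21). With Dox, DCLK1 was between 64 and 69 CPM in Tet-MIST1 and at most 0.143 CPM in Tet-One, and in the Tet-PTF1a Control libraries it was between 1.58 and 2.03 CPM.

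GPC6, a glypican that carries heparan sulfate at the cell surface, was the largest such change in the other direction. It is listed at chr13:93879078-95060273 of hg19, plus strand. GPC6 was at 14.8, 15.8, 18.7 and 15.1 CPM in Tet-One and at 0.0249, 0.046, 0.0232 and 0 CPM in Tet-MIST1. The Tet-MIST1 libraries held 0 to 2 counts each, so that GPC6 was at least 217-fold lower there. In Tet-PTF1a Control cells it was between 21.9 and 24.3 CPM.

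The promoters of these 2 genes are shown because they carry the largest change in each direction among genes with counts in both lines. Each window takes 250 bases upstream of a RefSeq start of the gene and 50 downstream, 5′ to 3′ on its strand, on GRCh38.p14, with each CpG in capitals. The windows were taken by gene symbol. They were not matched to the hg19 positions listed above, so a window may belong to another start of the gene.
DCLK1 (chr13:36131890-36132189, minus strand): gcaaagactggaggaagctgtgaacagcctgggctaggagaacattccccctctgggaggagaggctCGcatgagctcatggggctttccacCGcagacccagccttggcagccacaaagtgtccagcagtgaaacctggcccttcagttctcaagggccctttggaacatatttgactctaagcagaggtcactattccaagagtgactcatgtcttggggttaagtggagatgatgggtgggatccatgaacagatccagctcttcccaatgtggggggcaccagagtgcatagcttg
GPC6 (chr13:93226557-93226856, plus strand): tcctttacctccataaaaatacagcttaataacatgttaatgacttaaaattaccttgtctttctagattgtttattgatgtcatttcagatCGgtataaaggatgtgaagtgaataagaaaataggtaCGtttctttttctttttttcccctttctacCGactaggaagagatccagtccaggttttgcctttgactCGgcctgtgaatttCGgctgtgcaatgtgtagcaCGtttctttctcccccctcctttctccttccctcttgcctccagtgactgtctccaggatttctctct
The DCLK1 window holds 2 CpG sites and the GPC6 window 6, against a median of 27 over the promoters of 10162 tested genes. An observed-to-expected CpG ratio above 0.6, a usual mark of a CpG island, was found in 83.5% of those promoters. Among the genes that were nearly absent from 1 line, 24 had a promoter sequence and 12 of these passed that ratio, 3 of 9 of the higher and 9 of 15 of the lower genes. DNA methylation was not measured.

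Other genes were nearly absent from Tet-One. ADAMTSL1, a secreted protein related to the ADAMTS proteases, was at 0, 0.0528, 0.049 and 0 CPM in Tet-One and 10.2, 10.3, 10.5 and 9.44 CPM in Tet-MIST1. It was at least 133-fold higher. XDH, the xanthine dehydrogenase of purine breakdown, was at 0.0515, 0.0792, 0.049 and 0.0759 CPM in Tet-One and 9.8, 8.01, 9.8 and 8.56 CPM in Tet-MIST1. It was at least 118-fold higher, and no library of either gene overlapped between the lines. NEFL, the light chain of neurofilaments, had 0 counts in all 4 Tet-One libraries and 2.52, 2.58, 2.43 and 2.59 CPM in Tet-MIST1, at least 33.1-fold higher. PPAPDC1A, a lipid phosphatase, was at least 60.8-fold higher and the long noncoding RNA BLACAT1 at least 34.0-fold. LAMA1, a laminin chain of basement membranes, was at least 26.9-fold higher and WNK3, a kinase that regulates ion transport, at least 19.3-fold.

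Higher genes with some counts in Tet-One included SYT2, a calcium sensor of vesicle fusion, at 0.295 ± 0.0928 CPM (SD, n = 4) in Tet-One and 34.9 ± 3.61 CPM in Tet-MIST1. KCNK10, a potassium channel, was at 0.167 ± 0.0644 and 23.4 ± 1.58 CPM. ALX4, a homeobox gene, was at 0.356 ± 0.0299 and 28.4 ± 3.03 CPM, and EPHX4, a hydrolase, at 0.044 ± 0.042 and 4.35 ± 0.445 CPM. Their log2 fold changes were between 6.31 and 7.12, and their libraries did not overlap.

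Besides GPC6, 17 genes were nearly absent from Tet-MIST1. PCDH7, a protocadherin, was at least 92.5-fold lower, NR0B2, a nuclear receptor without a DNA-binding domain, at least 66.5-fold, and EGFLAM, a matrix protein of synapses, at least 64.1-fold. ZDHHC15, a palmitoyl transferase, was at least 65.8-fold lower, SLC6A15, an amino acid transporter, at least 57.2-fold, and TMEM47, a membrane protein of junctions, at least 46.4-fold. NLGN1, a synaptic adhesion protein, and BRINP3 were each at least 30.9-fold lower, and LRRC34 at least 22.2-fold. EPHA5, an ephrin receptor, was at least 17.5-fold lower, NOL4 at least 17.2-fold and ADGRL3, an adhesion G protein-coupled receptor, at least 13.7-fold, each with 0 counts in all 4 Tet-MIST1 libraries. UGT8, the enzyme that makes galactosylceramide, was at 17.2 ± 1.24 CPM (SD, n = 4) in Tet-One and 0.0686 ± 0.0328 CPM in Tet-MIST1. The long noncoding RNA AFAP1-AS1 was at 30.8 ± 0.782 CPM in Tet-One and 0.184 ± 0.114 CPM in Tet-MIST1, and SLC40A1, the iron exporter ferroportin, at 17 ± 0.651 and 0.146 ± 0.0305 CPM.

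All 18 of these lower genes were also listed for the Tet-PTF1a line, where 17 had a mean of 1 CPM or more in the Control libraries. Of the 14 higher genes, 3 were listed for Tet-PTF1a and 2 of them had a mean of 1 CPM or more there. The tables for Tet-PTF1a had been filtered on their own libraries, so a gene that was not listed there has no value here.

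**Figure D2:**
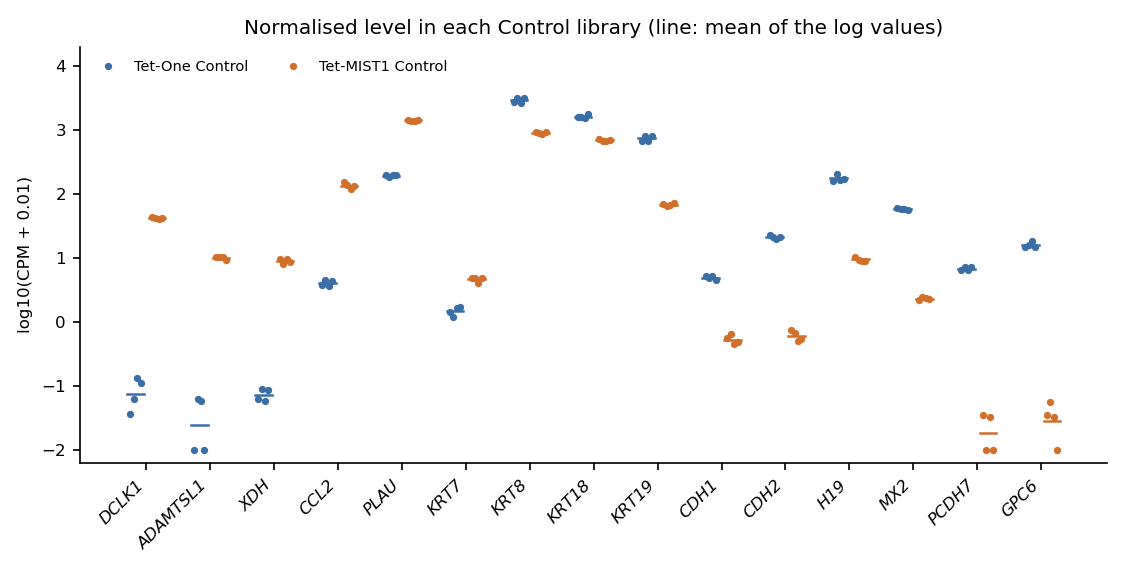
Level of 15 genes in each Control library as log10(CPM + 0.01), blue for Tet-One and orange for Tet-MIST1, with 1 point per library and a line at the mean of the log values. In each of the 15 genes the 4 points of a line lie apart from the 4 of the other. DCLK1, ADAMTSL1 and XDH are near the lower end in Tet-One, and PCDH7 and GPC6 in Tet-MIST1.

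Differences were shared by neighbouring genes along some chromosomes. Over chromosome arms of hg19, the median log2 change was 0.65 on 17p (238 genes, of which 211 were positive), -0.69 on 5p (105 genes), -0.56 on 18q (130 genes), -0.50 on 14q (436 genes) and -0.41 on 17q (587 genes). The arms 11p (-0.31), 11q (-0.35) and Xp (0.34) were next, and the median was within 0.15 of 0 on each of the other arms. With Dox, the medians of 17p, 5p, 18q, 14q and 17q were 0.61, -0.71, -0.60, -0.51 and -0.43. For Tet-PTF1a over Tet-One, which shares the Tet-One libraries, they were -0.09, -0.21, 0.25, -0.11 and -0.12.

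The changes were sharper in blocks of neighbouring genes. The 13667 genes placed on a chromosome formed 344 blocks of 38 to 42 genes, and in 34 blocks the median log2 change was 0.5 or more from 0, in 12 of them upward and in 22 downward. With Dox all 34 had the same sign and 33 were again at 0.5 or more. For Tet-PTF1a over Tet-One, 11 blocks reached 0.5, and 22 of the 34 blocks were within 0.25 of 0. The genome copy number was not measured, and its part in these medians was not tested.

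The largest median was on chromosome 13. In the block from KBTBD6 to SETDB2 (chr13:41701709-50069139) it was 1.42, and all 40 genes were positive. The next block along the arm, from PHF11 to UCHL3, had a median of 0.89, while the first (MPHOSPH8 to CDX2) was at -0.83 and the last (TMTC4 to CHAMP1) at -0.95. Chromosome 17 changed sign between neighbouring blocks. The first 6 blocks, from RPH3AL to the end of KSR1 at 25950718, had medians from 0.60 to 0.82, and the next 5, from NOS2 at 26083792 to the end of BRCA1 at 41277500, from -0.79 to -0.95. In the block from ACLY to BRCA1 none of 39 genes was positive. The block of 18q from C18orf25 to PMAIP1 was at -0.96, and the first of Xp, from GYG2 to PHKA2, at 0.86.

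**Figure D3:**
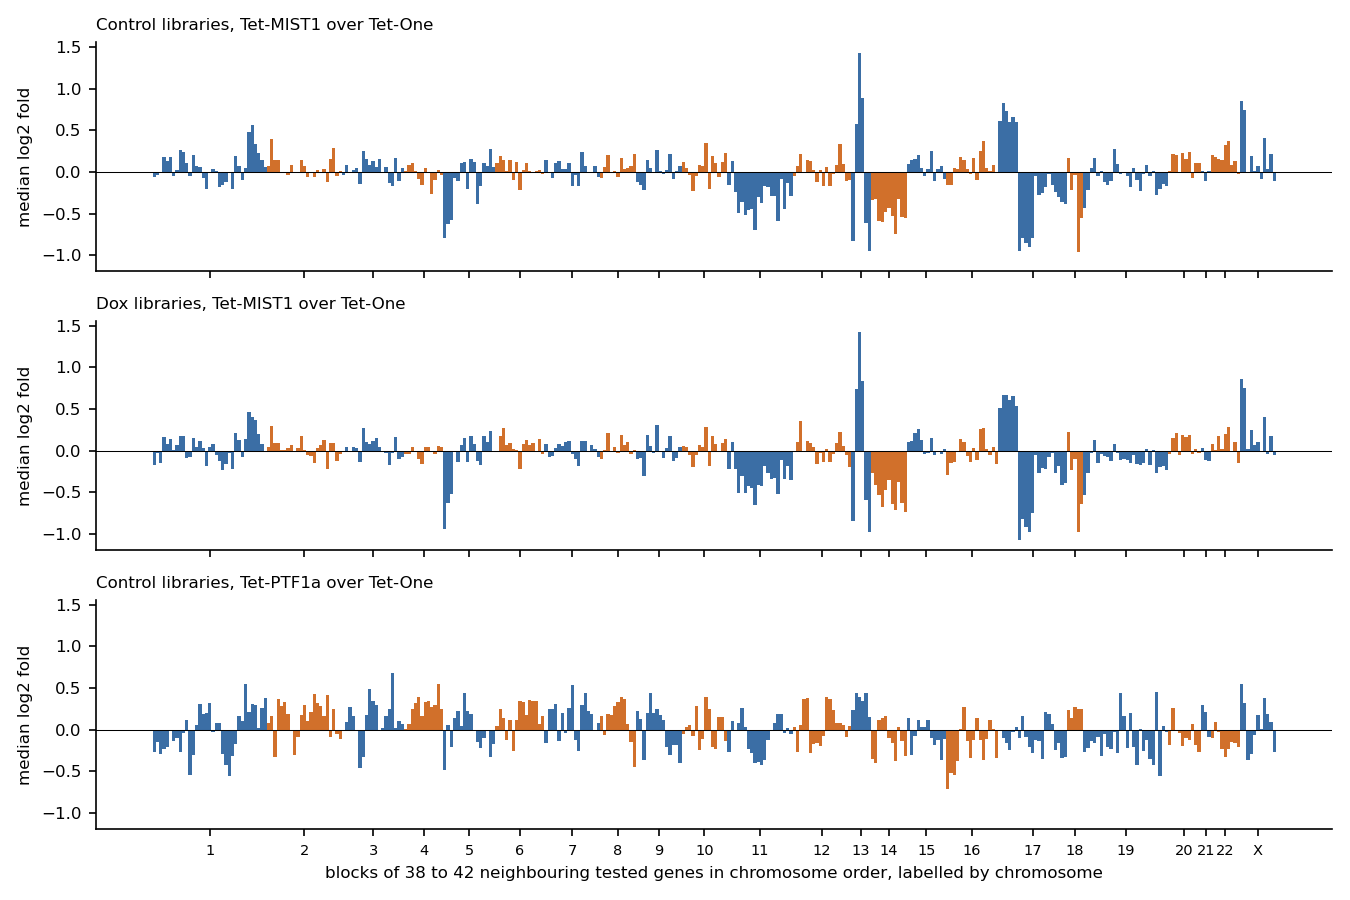
Median log2 fold change of 344 blocks of 38 to 42 neighbouring tested genes, in chromosome order with alternating colours, for the Control libraries of Tet-MIST1 over Tet-One (top), their Dox libraries (middle) and the Control libraries of Tet-PTF1a over Tet-One (bottom). The 34 blocks beyond 0.5 in the top panel keep their sign in the middle panel, where 33 are again beyond 0.5, and lie on chromosomes 1, 5, 11, 13, 14, 17, 18 and X.

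Some well-known cancer genes lie in these stretches. SMAD4, the common mediator of TGF-beta and BMP signals and a tumour suppressor of the pancreas, is on 18q. It was at 51.4, 50.6, 51.6 and 48.4 CPM in Tet-One and 20, 20.8, 20.3 and 21.5 CPM in Tet-MIST1. The lines did not overlap, and the log2 change was -1.29 (SE 0.04, FDR 1.90e-15), beside a median of -0.93 over the 20 tested genes on each side. RB1, the retinoblastoma protein that holds cells before S phase, changed by 0.96 (from 70.2 to 136 CPM) beside a neighbour median of 1.42. ERBB2, a receptor of the EGF family, changed by -1.41 (from 94.8 to 35.6 CPM) beside -0.81 on 17q.

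The genes with the largest change in the direction of their arm's median are named next, and by that choice they lie beyond it. On 17p these were NTN1, the guidance protein netrin-1 (log2 change 3.72), and WSCD1 (2.50), and on 14q GALNT16, a glycosyl transferase (-5.54), and LINC00341 (-4.15). On 17q they were CNTNAP1, an axonal adhesion protein (-3.87), and ALDOC (-3.54), on 5p EGFLAM and CDH10, and on 18q NOL4 and CDH2. Since neighbours shared changes, the median of some gene lists below is also given relative to neighbours. For this, the median of the 20 tested genes on each side was subtracted from each member. Where no such value is given, the median of a list does not take position into account. The background for each list is the median of all genes (-0.01) and the shares of all genes called higher and lower (39.5% and 40.7%). For differences of at least 2-fold the shares are 9.74% and 7.82%. A list whose counts are near these shares does not stand out from all genes.

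Genes of ductal identity were mostly lower in Tet-MIST1. Of 10 tested genes of ductal identity, 1 was higher and 8 were lower, 1 and 5 of them at least 2-fold. The median was -1.06, or -0.74 relative to neighbours. KRT19, the keratin that marks duct cells, was at 676, 808, 674 and 817 CPM in Tet-One and 70.5, 65.2, 66.4 and 71.9 CPM in Tet-MIST1. That was 10.9-fold lower with no overlap (log2 change -3.44, SE 0.08, FDR 1.06e-12), on 17q beside a neighbour median of -0.91.

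KRT8 and KRT18 form the keratin filaments of simple epithelia. KRT8 was at 2800, 3130, 2690 and 3180 CPM in Tet-One and 932, 900, 874 and 946 CPM in Tet-MIST1 (3.23-fold lower). KRT18 was at 1630, 1620, 1520 and 1760 CPM in Tet-One and 725, 674, 665 and 711 CPM in Tet-MIST1 (2.35-fold lower). Both were lower in every Tet-MIST1 library than in any Tet-One library. Both have processed copies in the genome that can share their reads. KRT7, their partner in duct cells, went the other way at a low level, from 1.42, 1.19, 1.67 and 1.72 CPM to 4.81, 4.81, 4.1 and 4.9 CPM (log2 change 1.63, SE 0.12, FDR 1.48e-10).

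Over all 9 tested keratins, 4 were higher and 5 lower, with KRT81 (2.60), KRT86 (1.84) and KRT80 (1.73) among the higher. Their median was -0.73, and 0.19 relative to neighbours, as KRT10, KRT15 and KRT19 lie in the 17q stretch. SOX9, the transcription factor of duct cells, was at 216, 204, 211 and 210 CPM in Tet-One and 119, 110, 114 and 111 CPM in Tet-MIST1, without overlap. Its log2 change was -0.89 (SE 0.04, FDR 2.87e-14). CA2, the carbonic anhydrase of duct cells, changed by -2.82, FOXA2 by -0.62 and the Notch target HES1 by -0.31. MUC1 was at 27.7 and 27.6 CPM and was not called.

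Of 30 genes of epithelial adhesion, 12 were higher and 15 lower (9 and 4 at least 2-fold), with a median of -0.18. CDH1, the E-cadherin of epithelial junctions, was low in both lines, at 5.23, 4.86, 5.15 and 4.5 CPM in Tet-One and 0.548, 0.644, 0.44 and 0.468 CPM in Tet-MIST1. It was lower in every Tet-MIST1 library (log2 change -3.22, SE 0.13, FDR 2.68e-14). ELF3, an epithelial transcription factor, changed by -2.95, and DSP, the desmoplakin of desmosomes, by -1.46. The P-cadherin gene CDH3 (3.58) was higher. Of 8 claudins, the sealing proteins of tight junctions, 3 were higher, CLDN1 (3.87) and CLDN4 (1.72) among them, and 3 were lower, led by CLDN6 (-0.96).

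Mesenchymal genes were not uniformly higher. Of 20 tested, 4 were higher and 11 lower (3 and 5 at least 2-fold), with a median of -0.28. CDH2, the N-cadherin of mesenchymal and neural cells, was at 22.5, 21.3, 20.1 and 21.4 CPM in Tet-One and 0.748, 0.667, 0.487 and 0.523 CPM in Tet-MIST1. That was 34.9-fold lower without overlap (log2 change -5.13, SE 0.10, FDR 4.92e-19), on 18q but beside a neighbour median of -0.05, and in Tet-PTF1a Control cells it was between 44 and 45.7 CPM. ZEB2, a repressor of E-cadherin, changed by -3.40, while the matrix proteins SPARC and TGFBI changed by 3.54 and 2.38. VIM, the intermediate filament vimentin, changed by -0.33 from a level of 6260 CPM. So E-cadherin and N-cadherin were both lower in Tet-MIST1.

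The study follows CSC markers and the response to gemcitabine, so their level in the uninduced lines bears on any comparison across them. Of 8 CSC markers, 3 were higher and 5 lower (3 and 0 at least 2-fold), with a median of -0.31. Relative to neighbours it was -0.63 over the 7 members with neighbour values, which leave out CD24, so the 2 medians cover different genes. Besides DCLK1, CD24 (1.62, from 40.7 to 125 CPM) and ALDH2 (1.29, from 8.4 to 20.5 CPM) were higher. Reads of CD24 can be shared with near-identical copies, so its count is uncertain. ALDH1A3 (-0.78), the efflux transporter ABCG2 (-0.74), the receptor MET (-0.59), EPCAM (-0.54) and CD44 (-0.07) were lower, none by 2-fold. Of other stem cell surface and pluripotency markers, 2 of 7 were higher and 5 lower, with ALCAM changed by -4.68 (from 53.8 to 2.09 CPM), THY1 by -1.69 and KLF4 by 3.02.

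Of 13 aldehyde dehydrogenases, 7 were higher and 4 lower (3 and 0 at least 2-fold), and ALDH3B1 had the largest change at 1.70. Of 7 efflux transporters of the ABC family, 3 were higher and 4 lower, and ABCC2 alone passed 2-fold (1.80, from 0.487 to 1.7 CPM). Of 18 genes of gemcitabine transport and metabolism, 8 were higher and 6 lower, with a median of 0.05. NT5E, the ectonucleotidase CD73 that makes adenosine from AMP, was at 284, 260, 282 and 262 CPM in Tet-One and 979, 961, 950 and 946 CPM in Tet-MIST1. It was 3.53-fold higher without overlap (log2 change 1.82, SE 0.04, FDR 8.99e-19).

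The genes of gemcitabine entry and activation differed among themselves. SLC29A2, an equilibrative nucleoside transporter, changed by -1.45 (from 69.9 to 25.5 CPM), whereas SLC29A1, the main one at 448 and 466 CPM, was not called. DCK, the kinase that activates gemcitabine, was at 43.5 and 41.4 CPM and was not called. RRM2 and TYMS, the nucleotide synthesis enzymes it acts on or near, changed by 0.69 and 0.97, and CDA, which inactivates it, by -0.89 at under 1 CPM.

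Interferon-stimulated genes were higher in Tet-MIST1. These genes answer type I and II interferons and RNA sensors, and most act against viruses. Of 38 tested, 31 were higher and 6 lower, 23 and 2 of them at least 2-fold. The median was 1.35, or 1.34 relative to neighbours, and with Dox 32 were called higher and 2 lower. IFIH1, the sensor MDA5 of double-stranded RNA, was at 1.73, 1.29, 1.67 and 1.21 CPM in Tet-One and 15.5, 16.5, 16.1 and 15.0 CPM in Tet-MIST1. The lines did not overlap (log2 change 3.41, SE 0.09, FDR 5.59e-17), and the Tet-PTF1a Control libraries were between 14.6 and 16.7 CPM, as high as Tet-MIST1.

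The largest increases were of SAMD9L (3.77), IFI44 (3.74) and GBP2 (3.63), from 0.2 CPM or less. The 3 oligoadenylate synthetases that activate RNase L, OAS1, OAS2 and OAS3, changed by 2.81, 2.62 and 2.32, and the membrane protein IFITM3 by 1.72 from a level of 115 CPM. The transcription factor IRF1 (0.85) changed less, and IRF9 was not called. Some list members went the other way, among them IFITM1 (-2.53), BST2 (-0.73) and STAT2 (-0.34). MX2 had the largest change of the list, and it was lower. This antiviral GTPase was at 59.8, 59.3, 58.5 and 56.6 CPM in Tet-One and 2.22, 2.44, 2.34 and 2.26 CPM in Tet-MIST1. It was 25.2-fold lower without overlap (FDR 2.22e-21), while its neighbour on chromosome 21 and homologue MX1 was higher (1.01).

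The interferon response element was searched as GAAANNGAA on both strands of the same promoter windows. It was in 17 of 28 list members with a sequence (60.7%), against 6.13% of the promoters of all 10162 tested genes and 8.29% of 27305 promoters in all. The promoter of IFI44 is shown as the list member with the largest change among those with a match, which is in capitals as it reads on the gene's strand.
IFI44 (chr1:78649539-78649838, GRCh38.p14, plus strand, RefSeq): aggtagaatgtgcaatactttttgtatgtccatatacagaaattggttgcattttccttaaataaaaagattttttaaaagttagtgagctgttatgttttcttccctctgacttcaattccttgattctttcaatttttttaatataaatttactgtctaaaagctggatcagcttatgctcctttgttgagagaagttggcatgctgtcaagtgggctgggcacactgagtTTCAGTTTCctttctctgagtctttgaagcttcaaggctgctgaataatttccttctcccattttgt
A match says that these letters are in the window and not that a factor was bound.

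Genes that interferon also raises in antigen presentation were mostly higher. Of 17 genes of MHC class I presentation, 14 were higher and 3 lower (6 and 0 at least 2-fold), with a median of 0.70, or 0.30 over the 7 members with neighbour values. The immunoproteasome subunits PSMB8 (2.14) and PSMB9 (1.37), the peptide transporter TAP1 (1.08), the aminopeptidase ERAP2 (1.73) and HLA-F (2.38) and HLA-B (1.45) were among the higher. HLA genes are polymorphic and share reads, so their values are uncertain. Of 3 class II genes tested, CD74 (2.14) and HLA-DPA1 (3.88) were higher, both from under 0.3 CPM.

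Of 17 cytokines, chemokines and related genes, 14 were higher and 2 lower (9 and 1 at least 2-fold), with a median of 1.82, or 1.08 relative to neighbours. CCL2, the chemokine that attracts monocytes, was at 3.74, 4.52, 3.65 and 4.38 CPM in Tet-One and 153, 139, 119 and 134 CPM in Tet-MIST1. It was 33.5-fold higher without overlap (log2 change 5.06, SE 0.09, FDR 1.2e-14), on 17q where the neighbour median was -0.69. Of the others, IL32 changed by 3.85, IL18 by 3.61, CCL5 by 2.66 and CX3CL1 by 1.89, while CSF1, the growth factor of macrophages, changed by -2.74 (from 233 to 34.8 CPM).

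Genes of lipid synthesis were lower in Tet-MIST1. SREBP-2 and SREBP-1, the products of SREBF2 and SREBF1, turn on the enzymes of cholesterol and fatty acid synthesis when sterols run low. Of 31 genes tested, 1 was higher and 27 lower, 1 and 16 of them at least 2-fold. The median was -1.05, or -0.91 relative to neighbours, and with Dox 1 was called higher and 25 lower. STARD4, a carrier of sterols between membranes, was at 39.8, 38.4, 40.2 and 35.4 CPM in Tet-One and 4.59, 5.71, 5.12 and 5.73 CPM in Tet-MIST1. SCD, the desaturase that makes oleate, was at 3150, 3110, 3020 and 2800 CPM in Tet-One and 1160, 1260, 1280 and 1290 CPM in Tet-MIST1. Neither overlapped, with log2 changes of -2.86 (SE 0.07, FDR 9.80e-18) and -1.28 (SE 0.04, FDR 2.59e-15).

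The fatty acid desaturases FADS2 (-2.46) and FADS1 (-1.80), the mevalonate enzyme HMGCS1 (-1.81), the late sterol enzyme DHCR7 (-1.51) and SREBF2 itself (-1.44) were also lower. ACLY (-1.36) and ACACA (-1.23), which make cytosolic acetyl-CoA and malonyl-CoA, lie in the 17q stretch with a neighbour median of -0.83. SREBF1 and PMVK were not called, and ELOVL6, a fatty acid elongase, was higher (2.73, from 1.44 to 9.57 CPM). A sterol response element written as TCACNCCAC was in 1 of 25 promoters of the list (4.0%), against 1.08% of tested genes. That promoter, of SREBF2, is shown with the match in capitals.
SREBF2 (chr22:41832855-41833154, GRCh38.p14, plus strand, RefSeq): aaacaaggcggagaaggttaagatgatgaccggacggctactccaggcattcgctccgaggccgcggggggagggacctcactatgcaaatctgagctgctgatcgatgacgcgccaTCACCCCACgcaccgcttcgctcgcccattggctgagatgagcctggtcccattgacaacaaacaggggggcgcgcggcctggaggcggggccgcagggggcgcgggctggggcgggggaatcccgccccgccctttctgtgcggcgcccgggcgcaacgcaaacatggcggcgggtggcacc

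Genes of glycolysis and of the response to low oxygen were lower as well. Of 33 tested, 3 were higher and 27 lower, 0 and 15 of them at least 2-fold, with a median of -0.73, or -0.78 relative to neighbours. ALDOC, the aldolase C of glycolysis, was at 88.9, 113, 83 and 86 CPM in Tet-One and 7.78, 7.2, 8.67 and 8.37 CPM in Tet-MIST1. LDHA, which turns pyruvate into lactate, was at 1930, 2270, 1990 and 2050 CPM in Tet-One and 938, 969, 923 and 917 CPM in Tet-MIST1. Neither overlapped between the lines, with log2 changes of -3.54 (SE 0.12, FDR 6.17e-10) and -1.14 (SE 0.04, FDR 3.81e-14).

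The kinase PDK1, which keeps pyruvate out of the mitochondria, changed by -1.90, the growth factor VEGFA by -1.29, the lactate exporter SLC16A3 by -1.36 and the glucose transporter SLC2A1 by -1.02. CA9, a carbonic anhydrase used as a marker of hypoxia, was below 1 CPM in both lines and changed by -4.59. The glycolytic genes ALDOA, HK1 and HK2 were not called, and PKM was higher (0.46). The core of the hypoxia response element, ACGTG, was in 13 of 30 promoters of the list (43.3%), against 26.8% of tested genes. Its match in CA9 is in capitals, as it reads on the gene's strand.
CA9 (chr9:35673678-35673977, GRCh38.p14, plus strand, RefSeq): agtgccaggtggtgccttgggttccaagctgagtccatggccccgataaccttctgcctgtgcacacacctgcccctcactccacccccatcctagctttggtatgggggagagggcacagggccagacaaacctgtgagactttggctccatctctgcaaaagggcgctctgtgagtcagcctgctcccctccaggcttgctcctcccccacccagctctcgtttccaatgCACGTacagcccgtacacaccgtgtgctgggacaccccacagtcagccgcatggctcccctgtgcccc

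Targets of ATF4, the transcription factor of the integrated stress response that restores amino acid supply, were also mostly lower. Of 28 tested, 2 were higher and 23 lower, 0 and 11 of them at least 2-fold, with a median of -0.90, or -0.88 relative to neighbours. Without Tet-One Control replicate 1, the count of those at least 2-fold lower was 7. ATF4 was at 606, 439, 537 and 475 CPM in Tet-One and 169, 185, 179 and 200 CPM in Tet-MIST1 (log2 change -1.49, SE 0.11, FDR 1.92e-06). SLC7A1, an importer of arginine and lysine, was at 253, 188, 233 and 187 CPM in Tet-One and 46.2, 42.5, 44.8 and 44.3 CPM in Tet-MIST1 (log2 change -2.27, SE 0.11, FDR 9.60e-08). Both were apart between the lines but varied among the Tet-One libraries, replicates 1 and 3 being the higher ones for both.

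The stress-induced factor ATF3 changed by -1.86, the secreted STC2 by -1.64, the transporter SLC7A5 by -1.33, the asparagine synthetase ASNS by -1.16 and VLDLR by -2.05. SHMT2 (0.30) and NUPR1 (0.59) were higher. The amino acid response element, written TGATGNAA, was in 5 of 19 promoters of the list (26.3%), against 1.47% of tested genes. None of the 4 motifs searched contains another. The match of SLC7A1, the list member with the largest change, is in capitals.
SLC7A1 (chr13:29595639-29595938, GRCh38.p14, minus strand, RefSeq): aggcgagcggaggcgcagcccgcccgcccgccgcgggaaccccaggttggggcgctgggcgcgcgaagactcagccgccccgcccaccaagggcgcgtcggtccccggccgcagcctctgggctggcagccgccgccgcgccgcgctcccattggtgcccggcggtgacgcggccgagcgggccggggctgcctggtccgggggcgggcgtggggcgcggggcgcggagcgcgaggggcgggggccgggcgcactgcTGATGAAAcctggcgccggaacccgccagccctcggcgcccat

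The unfolded protein response (UPR) and the chaperones of the endoplasmic reticulum were less affected. Of 36 tested genes, 10 were higher and 20 lower, 0 and 3 of them at least 2-fold, with a median of -0.17. The 3 were HERPUD1 (-1.19) and SEL1L (-1.14), which act in the disposal of misfolded proteins, and the chaperone HYOU1 (-1.09). HSP90B1 (-0.82), XBP1 (-0.82) and HSPA5 (-0.57) were lower too, and DERL2, on 17p, was higher (0.71 beside a neighbour median of 0.75).

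**Figure D4:**
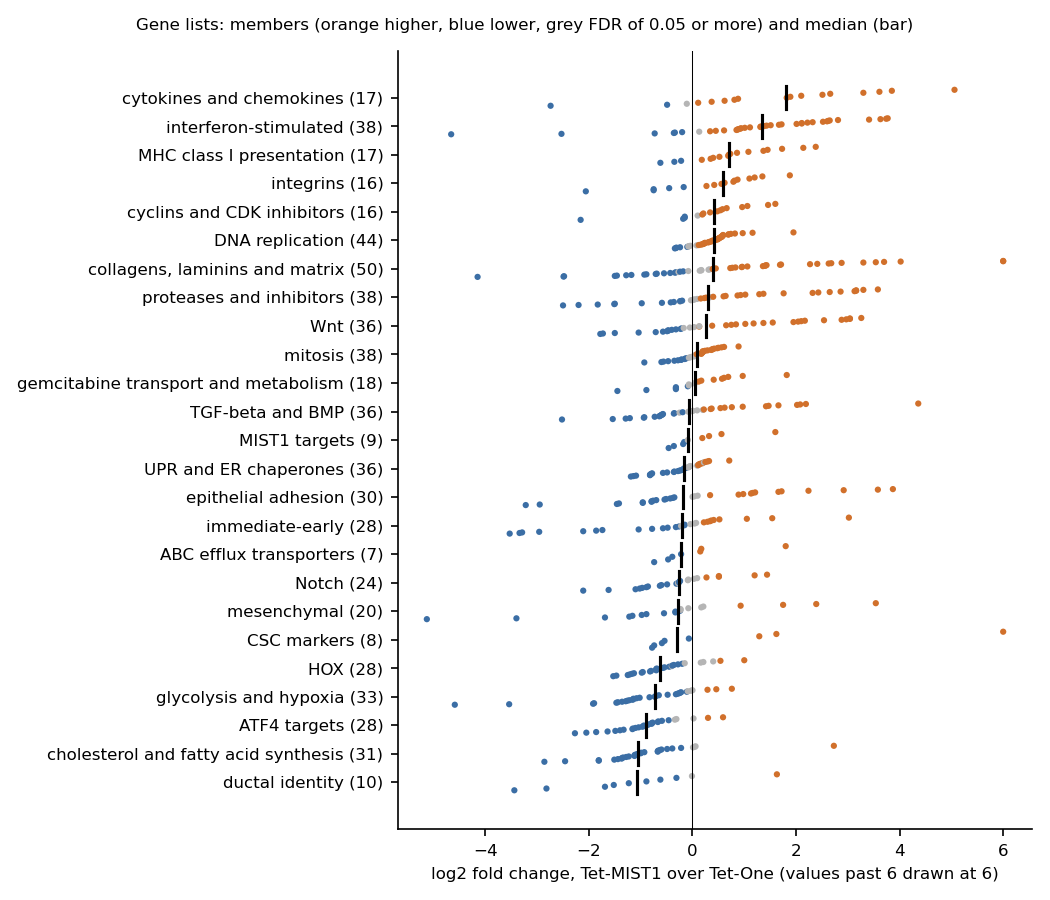
Log2 fold change of Tet-MIST1 over Tet-One for the tested members of 25 gene lists, ordered by median, with the number of members in parentheses. Each point is a gene, orange if higher and blue if lower at FDR under 0.05 and grey otherwise, and the black bar is the median, from 1.82 for cytokines and chemokines to -1.06 for ductal identity. Values past 6 are drawn at 6.

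Genes of DNA replication were slightly higher and those of mitosis were mixed. Of 44 replication genes, 35 were higher and 5 lower, but only 2 and 0 of them at least 2-fold, with a median of 0.41, or 0.40 relative to neighbours. RFC3, a subunit of the clamp loader, was at 40.5, 40.3, 43.9 and 40.9 CPM in Tet-One and 156, 165, 160 and 161 CPM in Tet-MIST1. That was a log2 change of 1.95 (SE 0.04, FDR 8.46e-19) without overlap, on chromosome 13 beside a neighbour median of 0.57. POLA1, the catalytic subunit of DNA polymerase alpha on Xp, changed by 1.16 beside 0.70, TYMS by 0.97 and E2F1 by 0.82. Of 38 mitotic genes, 19 were higher and 11 lower, none by 2-fold, with a median of 0.08. TOP2A, in the 17q stretch, changed by -0.93 beside a neighbour median of -0.90.

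Of 16 cyclins, CDKs and their inhibitors, 11 were higher and 4 lower (3 and 1 at least 2-fold), with a median of 0.41, or 0.16 relative to neighbours. CDKN1A, the inhibitor p21, was at 24.4, 30, 25.5 and 28.2 CPM in Tet-One and 85, 79.9, 80.6 and 82.8 CPM in Tet-MIST1. It was 3.04-fold higher without overlap (log2 change 1.60, SE 0.05, FDR 3.95e-15), and in Tet-PTF1a Control cells it was between 15.3 and 17.1 CPM. CDKN1C (1.46) and CCND3 (1.06) were higher and CCND2 (-2.16) lower. CDKN2A and CDKN2B, which Panc-1 cells are known to lack, were not analysed here.

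Of 28 immediate-early genes, which growth factors and stress turn on within minutes, 9 were higher and 15 lower (3 and 8 at least 2-fold), with a median of -0.19. EGR2 (-3.53), FOS (-3.33), FOSB (-3.29), NR4A1 (-2.96) and EGR1 (-2.11) were lower, from levels between 1.38 and 14.9 CPM in Tet-One. KLF4 (3.02), ETV4 (1.54) and ETV5 (1.05) were higher.

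The matrix, its receptors and its proteases held some of the largest changes. Of 50 genes of collagens, laminins and other matrix, 26 were higher and 17 lower (18 and 7 at least 2-fold), with a median of 0.39. COL13A1, a transmembrane collagen, was at 0.438, 0.475, 0.613 and 0.936 CPM in Tet-One and 47, 45.6, 45 and 46 CPM in Tet-MIST1. It was 73.9-fold higher without overlap (log2 change 6.21, SE 0.10, FDR 4.49e-20). The laminin chain LAMB1 (2.41), COL5A2 (3.30) and SPARC (3.54) were also higher. COL11A1 (-4.15), COL6A3 (-2.49) and COL18A1 (-1.46, from 1400 to 508 CPM) were lower. Of 16 integrins, 11 were higher and 5 lower (4 and 1 at least 2-fold), with a median of 0.59, ITGB8 (1.35) and ITGA2 (1.10) being among the higher and ITGA1 (-2.06) among the lower.

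Of 38 proteases and their inhibitors, 21 were higher and 11 lower (13 and 5 at least 2-fold), with a median of 0.30. PLAU, the urokinase that activates plasminogen at the cell surface, was at 196, 186, 198 and 197 CPM in Tet-One and 1450, 1410, 1380 and 1420 CPM in Tet-MIST1. That was 7.27-fold higher without overlap (log2 change 2.86, SE 0.04, FDR 1.83e-21). Its receptor PLAUR (2.65), the metalloproteases ADAM19 (3.58), ADAMTS1 (3.16) and MMP9 (3.16), the inhibitor TIMP1 (2.32) and SERPINA1 (3.30) were higher. The inhibitor SERPINB9 (-2.50) and MMP16 (-1.83) were lower.

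Of 8 genes of the EGF receptor family and its ligands, 3 were higher and 3 lower (2 and 3 at least 2-fold). EGFR was at 255, 242, 279 and 238 CPM in Tet-One and 110, 90.1, 106 and 83.2 CPM in Tet-MIST1. It was 2.61-fold lower without overlap (log2 change -1.38, SE 0.09, FDR 5.91e-07), and in Tet-One Dox libraries it ranged from 46.9 to 280 CPM. Of 4 ligands tested, NRG1 (3.19) and HBEGF (2.67) were higher and TGFA and NRG2 were not called, and the feedback inhibitor ERRFI1 (-1.04) was lower. Of 29 other receptor kinases, 13 were higher and 13 lower (5 and 5 at least 2-fold). EPHB1 (5.95), ROR1 (2.52) and INSR (2.33) were higher, and EPHA7 (-2.67), RET (-1.79) and IGF1R (-1.01) lower.

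Of 36 Wnt pathway genes, 19 were higher and 13 lower (14 and 4 at least 2-fold), with a median of 0.26. The ligands WNT10A (3.04), WNT4 (2.97) and WNT5B (2.54), the receptor FZD8 (3.04), the secreted inhibitors WIF1 (3.26) and DKK1 (2.88, from 43.5 to 321 CPM) and the target genes AXIN2 (2.17), NKD1 (2.04) and RNF43 (1.95) were higher. All of these higher genes except WNT5B and DKK1 were under 1 CPM in Tet-One. NKD1 was under 1 CPM in both lines. WNT11 (-1.73), FZD4 (-1.50) and NKD2 (-1.78) were lower, and CTNNB1, the beta-catenin that carries the signal, was not called.

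Of 36 genes of TGF-beta and BMP signalling, 14 were higher and 16 lower (7 and 4 at least 2-fold), with a median of -0.06. The ligands BMP7 (4.36) and GDF15 (2.19), the receptors TGFBR3 (2.08) and TGFBR2 (1.66) and the BMP antagonist CHRD (2.02) were higher. TGFB2 (-2.52), SMAD7 (-1.54), SMAD4 (-1.29), SMAD2 (-0.93) and SMAD3 (-0.73) were lower, of which SMAD2, SMAD4 and SMAD7 lie on 18q beside neighbour medians of -0.75 to -0.93.

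Targets of YAP and SMAD proteins leaned lower, with 5 of 19 higher and 12 lower (3 and 5 at least 2-fold) and a median of -0.62. ANKRD1 (-4.72), CTGF (-1.24) and CYR61 (-0.75) were lower and THBS1 (1.69) was higher. Of 24 Notch pathway genes, 5 were higher and 14 lower (2 and 4 at least 2-fold), with a median of -0.27. The coactivator MAML3 (-2.11), the ligand JAG2 (-1.62), the receptors NOTCH3 (-1.10) and NOTCH2 (-0.85) and the target NRARP (-1.02) were lower, and the ligand DLL4 (1.44) higher.

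Genes of position along the body and of parental imprinting also differed between the clones. Of 28 HOX genes, 2 were higher and 21 lower (1 and 6 at least 2-fold), with a median of -0.63, or -0.50 relative to neighbours. The 1 higher by 2-fold was lost without Tet-One Control replicate 3, Tet-MIST1 Control replicate 3 or Tet-MIST1 Control replicate 4. HOXB9 (-1.53), HOXB3 (-1.47) and HOXB6 (-1.21) of the HOXB cluster on 17q and HOXC9 (-1.25) and HOXA3 (-1.17) of other clusters were lower. Neighbouring HOX genes overlap on both strands, and the use of strand in counting is not given in the sources used here.

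Of 24 imprinted genes, 10 were higher and 12 lower (6 and 5 at least 2-fold). H19, a noncoding RNA read from the maternal copy, was at 161, 204, 166 and 174 CPM in Tet-One and 10.4, 9.46, 9.08 and 9.08 CPM in Tet-MIST1. That was 18.6-fold lower without overlap (log2 change -4.21, SE 0.08, FDR 3.58e-14). In Tet-PTF1a Control cells H19 was between 374 and 406 CPM. IGF2, its neighbour read from the paternal copy, was higher (3.37) but under 1 CPM in both lines. KCNQ1OT1, a noncoding RNA of the same region of 11p, changed by -2.37, and the genes KCNQ1 (3.02), PHLDA2 (2.20) and CDKN1C (1.46) beside it were higher.

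Genes that MIST1 is known to drive or that responded to Dox in Tet-MIST1 show how far the uninduced line differed from Tet-One in the direction of induction. KLF15, a Krüppel-like transcription factor, had 7, 2, 4 and 4 counts in the Tet-One Control libraries and 17, 18, 26 and 17 in the Tet-MIST1 Control libraries. With Dox it had 7, 6, 3 and 6 counts in Tet-One and 504, 438, 385 and 372 in Tet-MIST1. The uninduced lines did not overlap, with means of 0.11 and 0.483 CPM (4.41-fold, two-sided exact permutation p = 0.0286, the smallest that 4 against 4 libraries allow). Libraries that do not overlap give this p, and they were found for 74.7% of all tested genes, so it does not set KLF15 apart. KLF15 was below the filter on low counts, and without that filter its FDR by edgeR was 8.58e-06.

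CRYM, the thyroid hormone binding protein mu-crystallin, behaved alike at a low level. It had 2, 2, 3 and 2 counts in Tet-One Control libraries and 16, 18, 23 and 15 in Tet-MIST1 Control libraries. Again the lines did not overlap, as for 74.7% of tested genes. The difference was 7.7-fold by the means, with an exact permutation p of 0.0286. Induction with Dox in Tet-MIST1 was 9.31-fold for CRYM and 23.7-fold for KLF15. Both genes were chosen from the list of genes that respond to Dox in this line, and their levels without Dox cannot be told apart from a property of the clone.

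The other responders went the opposite way in the uninduced lines. C2orf88, an anchor of protein kinase A, was at 2.45, 2.06, 2.73 and 2.72 CPM in Tet-One and 1.89, 2.01, 1.74 and 1.73 CPM in Tet-MIST1 on the scale of all 24 libraries. It was lower by 0.44 on the log2 scale without Dox, and 7.44-fold higher with Dox than without in Tet-MIST1. RAB26, a small GTPase of secretory granules and a known target of MIST1, was at 20.5, 22.2, 20.8 and 19.8 CPM in Tet-One and 13.1, 14.6, 15.2 and 17.6 CPM in Tet-MIST1. No library of either gene overlapped between the lines, and the RAB26 log2 change was -0.47. ACBD7, a binding protein of acyl-CoA, was at 4.54, 3.02, 3.9 and 2.9 CPM in Tet-One and 1.54, 1.61, 1.92 and 1.67 CPM in Tet-MIST1 (log2 change -1.09). C2orf88, RAB26 and ACBD7 each had an exact permutation p of 0.0286, the same as KLF15 and CRYM.

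Of 9 tested MIST1 targets, 4 were higher and 4 lower, 1 and 0 of them at least 2-fold, with a median of -0.10. RAB3D, a GTPase of zymogen granules, changed by -0.18 (exact permutation p = 0.0571), SEC63 by -0.36 and the stress kinase EIF2AK3 by -0.16. EIF2AK3 had an FDR of 0.0503 by edgeR without Tet-One Control replicate 3. The translocon genes SEC61B (0.32) and SEC62 (0.19) and the chaperone DNAJC1 (0.56) were higher, CDKN1A was the largest at 1.60, and COPZ2 was not called. In Tet-MIST1, CDKN1A was at 83.1 CPM without Dox and 85.1 CPM with it (1.02-fold), so it did not respond to Dox. Of the 9, 7 were called higher and 0 lower in Tet-MIST1 with Dox. SEC61B, SEC62, DNAJC1 and CDKN1A were already higher without it. BHLHA15, GJB1 and ATP2C2 were not analysed here, so the transgene itself has no value in this comparison.

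**Figure D5:**
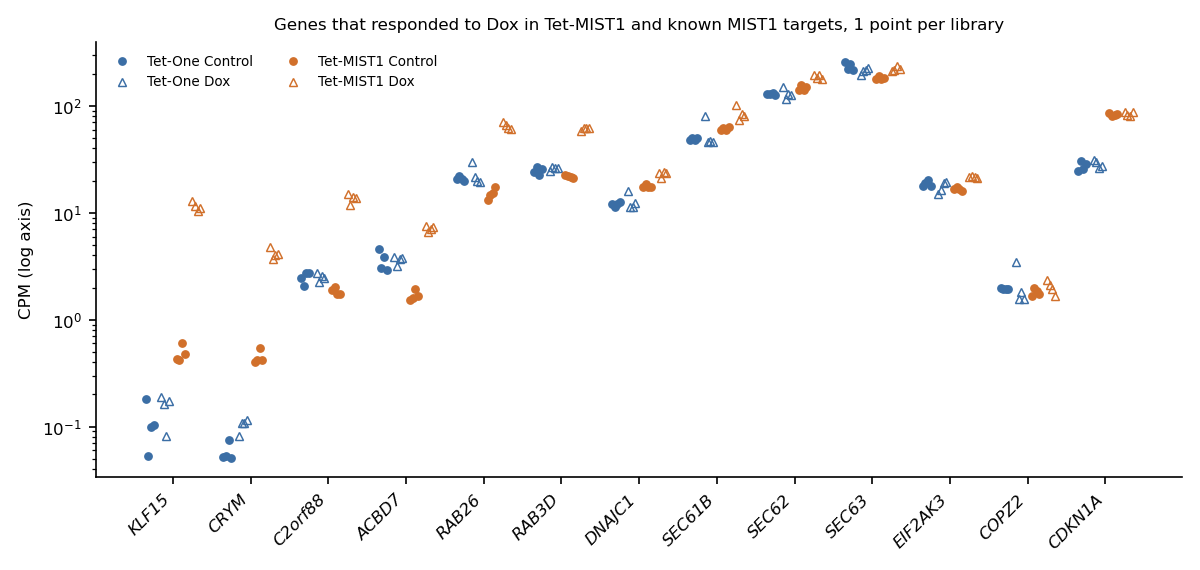
CPM on a log axis of 13 genes in each library of Tet-One (blue) and Tet-MIST1 (orange), filled circles for Control and open triangles for Dox. KLF15 and CRYM are at 0.4 to 0.61 CPM in Tet-MIST1 Control, above every Tet-One library, and C2orf88, ACBD7 and RAB26 are lower in Tet-MIST1 Control than in Tet-One Control.

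The 10 genes with the highest levels all differed by less than 2-fold. EEF1A1, a translation elongation factor, changed by -0.48 (from 14800 to 10700 CPM) and ACTB, the beta-actin often used as a reference gene, by 0.84 (from 3010 to 5380 CPM). VIM (-0.33), GAPDH (-0.29) and PSAP (-0.28) were called lower, as were ACTN4 (-0.16), ACTG1 (-0.14), ENO1 (-0.11) and FBL (-0.08). RPS16 (0.14) was called higher, but it was at -0.02 after correction for exon length and GC content. Several of these genes have processed copies that share their reads.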

How the data were processed

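RNA was sequenced in pairs of reads from 24 Panc-1 libraries, of which the 8 Control libraries of Tet-MIST1 and Tet-One are described here, with the Dox libraries of both lines and the Tet-PTF1a Control libraries alongside. The authors aligned reads to hg19 with TopHat and deposited whole-number counts per gene. The submitters' processing notes also name HTSeq, DESeq and edgeR. Versions, the counting annotation and the use of strand are not given in the sources used here. The authors had filtered on low values, by over 0.5 CPM in no fewer than 4 samples. Their scaled CPM, fold change, p-value and FDR columns hold their own normalization and comparisons and were not used.

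Counts were tested with edgeR 4.0.16 in R 4.3.3 (TMM scaling, robust quasi-likelihood F test, Benjamini-Hochberg FDR under 0.05), on genes that passed 0.5 CPM in 4 or more of 8 libraries. A gene differed at least 2-fold if called with an absolute log2 fold change of 1 or more. The script was tested on simulated data. SE is of the log2 fold change and CPM uses TMM-scaled library sizes. Dox and Tet-PTF1a levels, and the library values of the MIST1 and Dox responder genes, are on 1 scale over all 24 libraries and the genes listed for all lines. A fold against a line with at most 3 counts per library used 3 counts, which covers counting error only. Depth was 35628826 to 42510942 counts per library. Medians of neighbouring genes, arms and blocks carry no test.

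Replicate numbers did not pair the libraries: the deviations of same-numbered libraries correlated at -0.127, -0.063, 0.022 and 0.09. Members and gene lists were chosen with earlier results of these data known. Named genes were the 12 with the largest change in each direction, those nearly absent from 1 line, the leading and defining members of each list, MIST1 targets and Dox responders, the genes leading the shifted arms and the 10 most abundant. 20 gene names that had turned into dates were not used by name. Promoters are RefSeq sequences on GRCh38.p14, matched by symbol for 10162 tested genes. Alternatives were other scalings, tests and filters, DESeq2 1.42.0, a replicate block, a fit of all 16 libraries, correction for exon length and GC content, and leaving out each replicate. The subtraction of neighbours, the blocks of genes and the count of recurring calls without Tet-One Dox replicate 1 were chosen after seeing the data. Some members of the lists are not reported here.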

Additional observations from a re-analysis of the deposited data

Results flagged for a closer look

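In 3 of 66 sets of 4 libraries tested, 1 library lay far from the other 3, where chance gives about 1 in 20. RFC3 was at 43.9 CPM in Tet-One Control replicate 3, and the other 3 were at 40.3 to 40.9 CPM. PLAU was at 186 CPM in Tet-One Control replicate 2, against 196 to 198 CPM. KRT7 was at 4.1 CPM in Tet-MIST1 Control replicate 3, against 4.81 to 4.9 CPM. Each of these libraries remained on its line's side of the difference.

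For 12 named genes the difference between the lines with Dox was not the difference without Dox, by the interaction of line and Dox in edgeR over all 16 libraries. These comparisons take their 4 groups from the same clones. C2orf88, RAB26, ACBD7, KLF15 and CRYM were named because they responded to Dox in this line. Their excess with Dox follows from that choice and is no separate evidence of a response. The excess with Dox was 2.87 on the log2 scale for C2orf88 (FDR 3.76e-08), 1.4 for RAB3D (FDR 1.73e-07), 1.96 for RAB26 (FDR 9.62e-06) and 2.04 for ACBD7 (FDR 1.11e-05). All 4 were lower in uninduced Tet-MIST1 and higher with Dox. KLF15, with an excess of 4.09 (FDR 0.000106), and CRYM, with 2.4 (FDR 0.0404), were already above Tet-One without Dox.

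Genes outside the Dox responders and secretory genes were fewer. ATF3 was lower by 1.86 without Dox and by 0.34 with it, an excess of 1.52 (FDR 0.000483). SLC40A1 differed by 1.74 (FDR 0.00255), BMF, which promotes cell death, by 1.1 (FDR 0.0049) and HMGCS1 by 0.47 (FDR 0.00232), and each had a log2 change below 0 in both conditions. SEC63 differed by 0.4 (FDR 0.0301) and EIF2AK3 by 0.46 (FDR 0.0346). Tet-One Dox replicate 1 entered all of these tests, and its part in them was not tested.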

How the results depend on the processing

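The count of genes called between the uninduced lines was 11088, from 10772 to 11012 when each replicate was left out and from 8904 (all 16 libraries in one fit) to 11447 (corrected for exon length and GC content) under the other settings. DESeq2 called 10859. The count at least 2-fold was 2427, from 2401 to 2443 without each replicate and from 2015 to 2449 otherwise, and edgeR's test against a log2 change of 1 gave 1862. With Dox the count of 7251 ranged from 6225 to 10195 without each replicate, the highest without Tet-One Dox replicate 1, and from 6774 to 9018 otherwise. All of these counts were within 1.5 times the main ones. The share of calls that were higher ranged from 49.2% to 55.1% for Control and from 49.0% to 59.6% for Dox, the highest of each with library size scaling.

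With the replicate number as a block, 11003 genes were called in the Control libraries, 2425 of them at least 2-fold, and 8794 with Dox. The numbers did not pair the libraries: 1 Tet-One library correlated best with its own number, and no cause follows from these counts.

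Of 221 named genes, 211 kept their direction and side of the threshold in all 18 settings with a value. The other 10 were ACTG1, ACTN4, COPZ2, EIF2AK3, ENO1, ERG, FBL, RAB3D, RPS16 and SEC61B, all with small changes. One value reversed: RPS16 went from 0.14 to -0.02 after correction for exon length and GC content (edgeR FDR 0.443), and the cause was not tested. FBL lost its call in 12 settings and ENO1 in 4, and without Tet-One Control replicate 2 neither was called. Of 1836 list counts at least 2-fold, 1809 were within 1.5 times the main count. After neighbours were subtracted, the median changed sign for keratins (-0.73 to 0.19), ABC transporters (-0.22 to 0.005), the BCL2 family (-0.086 to 0.175), MIST1 targets (-0.095 to 0.095), xenobiotic metabolism (-0.009 to 0.132) and immune markers (0.262 to -0.036). Depth limited genes below 0.5 CPM, where a library holds about 20 counts or fewer.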

Other observations

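Genes of axon guidance, which steer growing nerve fibres and also epithelial cells, held large changes in both directions. Of 46 tested, 21 were higher and 18 lower (11 and 7 at least 2-fold), with a median of 0.13. The receptor PLXNA2 (5.53), the netrins NTN4 (4.41) and NTN1 (3.72), the netrin receptor UNC5C (3.32) and the semaphorins SEMA3A (2.77) and SEMA3E (2.65) were higher in Tet-MIST1. The ephrin EFNB2 (-5.49) and the semaphorin receptor NRP2 (-3.92) were lower, EFNB2 beside a neighbour median of -1.01. Of 16 neuronal and neuroendocrine genes, 6 were higher and 9 lower (4 and 5 at least 2-fold). SCG2 (4.13), SNAP25 (3.43) and STMN3 (2.67) were higher, and NCAM2 (-5.58), SYT1 (-1.88), MAP2 (-1.37) and CHGB (-1.26) lower.

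Of 24 genes of DNA methylation and chromatin, 7 were higher and 15 lower (1 and 5 at least 2-fold), with a median of -0.24. The demethylase TET1 (-1.89), HDAC9 (-1.18) and KDM6B (-1.06) were lower, as were EZH1 (-1.48) and SUZ12 (-1.10) in the 17q stretch. SMARCA2 (1.03) was higher, and its 2-fold call was lost without Tet-One Control replicate 4. The maintenance methyltransferase DNMT1 was not called. Of 13 heat shock genes, 8 were higher and 3 lower, with HSPH1 (1.42) and DNAJB1 (1.32) at least 2-fold. Of 21 NRF2 targets, 14 were higher and 6 lower (3 and 1 at least 2-fold), with OSGIN1 (1.81) higher and HMOX1 (-1.09) lower.

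Of 21 genes of xenobiotic metabolism, 10 were higher and 9 lower (3 and 3 at least 2-fold). The carboxylesterase CES1 was at 606 CPM in Tet-One and 87.8 CPM in Tet-MIST1. Of 14 S100 proteins and mucins, 5 were higher and 6 lower (2 and 4 at least 2-fold). MUC16, the antigen CA125, was at 4.88 and 0.103 CPM, and S100A16 at 20.1 and 144 CPM. In the BCL2 family, BCL2L1, which blocks cell death, was at 138 and 299 CPM, and BMF, which promotes it, at 9.71 and 1.97 CPM.

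Of 8 acinar transcription factors, 4 were tested. NR5A2, which supports acinar genes, changed by -3.71 (from 9.91 to 0.76 CPM), GATA4 by -0.43, PDX1 by 0.47 and GATA6 by 2.17, the last from 0.146 to 0.669 CPM. Of 61 cancer-testis antigens, 4 were tested, with MAGEA4 (3.83) and MAGEA1 (2.67) higher at low levels and PRAME at 143 and 213 CPM. AZGP1 was chosen after its values were seen. It had 0 to 1 counts in the Control libraries of both lines and 23 to 28 counts in each Tet-MIST1 Dox library.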
